A study of Mus musculus with 12 samples.

Results

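The collagen genes described here are the protein-coding mouse genes whose symbol is Col, a number, a and a number, such as *Col3a1*. There were 44 of them among 21817 protein-coding genes with RNA-seq values and a position in the genome. The data come from E14 mouse embryonic stem cells (mESCs), which are pluripotent cells of the early embryo, and from NIH3T3 cells, an established line of mouse embryonic fibroblasts. Both lines were grown in the same medium, with serum and the cytokine LIF, and no other treatment is given. In the Ctr9-GFP libraries of both lines, GFP had been added to the end of the *Ctr9* gene, which encodes a core subunit of the Paf1 complex (Paf1C), a factor that travels with RNA polymerase II (RNAPII), and pools of sorted GFP-positive cells were used rather than single clones. In the NELFA-GFP library of mESCs the tag was on NELFA, a subunit of the negative elongation factor. The study states that Ser5p was profiled in the NELFA-tagged mESCs. The remaining libraries are labelled by cell line only. For each line, RNA was sequenced once, and ChIP-seq (sequencing of the DNA pulled down with a protein or histone mark) was made once for Ctr9-GFP and for H3K27ac, an acetylation of histone H3 at active promoters and enhancers. In mESCs, NELFA-GFP and RNAPII phosphorylated at Ser5 (Ser5p) or Ser2 (Ser2p) were also profiled once each. With 1 library per group no difference below has a replicate check, no p-value was computed, and each interval covers counting error only.

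Collagens are the main structural proteins of the extracellular matrix, each built from 3 chains that wind into a triple helix. Fibrillar collagens form the fibrils of connective tissue, the chains of collagen IV form the sheet under epithelia and vessels, collagen VI forms beaded filaments around cells, and the FACIT collagens bind to the surface of fibrils. Fibroblasts are the classical producers of fibrillar collagen, whereas the early embryo first lays down basement membrane.

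The lines carried the markers of their labels. All 5 mESC markers (*Pou5f1*, *Sox2*, *Nanog*, *Esrrb* and *Zfp42*) were higher in mESCs and all 6 fibroblast markers, collagens left out, were higher in NIH3T3 cells. In mESCs, of 6 markers of extraembryonic endoderm, *Sox7* stood at 6.04 TPM (kallisto's unit of level, corrected for transcript length and library size), *Gata4* at 2.21 and the other 4 between 0.146 and 0.593. Both neural markers, *Pax6* at 2.02 and *Sox1* at 1.16, were also above 1. The RNA-seq libraries held 26400407 estimated counts in mESCs and 28849497 in NIH3T3 cells. The peak lists do not give the number of reads that each ChIP-seq library reached, which is therefore unknown here.

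Collagen RNA was scarce in mESCs and abundant in NIH3T3 cells. The 44 genes took 0.0645% of all estimated counts in mESCs (95% exact Clopper-Pearson interval 0.0636–0.0655) and 1.66% in NIH3T3 cells (1.65–1.66). By TPM they took 0.0190% and 0.450%. In bulk RNA a low level in all cells and a high level in few cells cannot be told apart. In what follows, the level of a gene is the TPM of its most expressed transcript. In mESCs 6 of 44 genes reached a TPM of 1, against 51.4% of all protein-coding genes, and 1 reached 10, against 29.6%. In NIH3T3 cells 23 reached 1, against 49.2%, and 15 reached 10, against 29.5%. Another 20 genes were below 1 in both lines, and *Col4a3*, *Col4a4*, *Col9a1* and *Col19a1* had no count in either, and a count of 0 allows up to 3 counts in either library.

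A difference of at least 2-fold, on the log2(TPM + 1) scale, was found for 20 of the 44 genes. The level was higher in NIH3T3 cells for 18, against a background of 11.3% of all protein-coding genes, and higher in mESCs for 2, against a background of 13.5%. The median log2 difference (NIH3T3 over mESCs) was 0.68 for the collagen genes and 0 for all protein-coding genes.

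**Figure D1:**
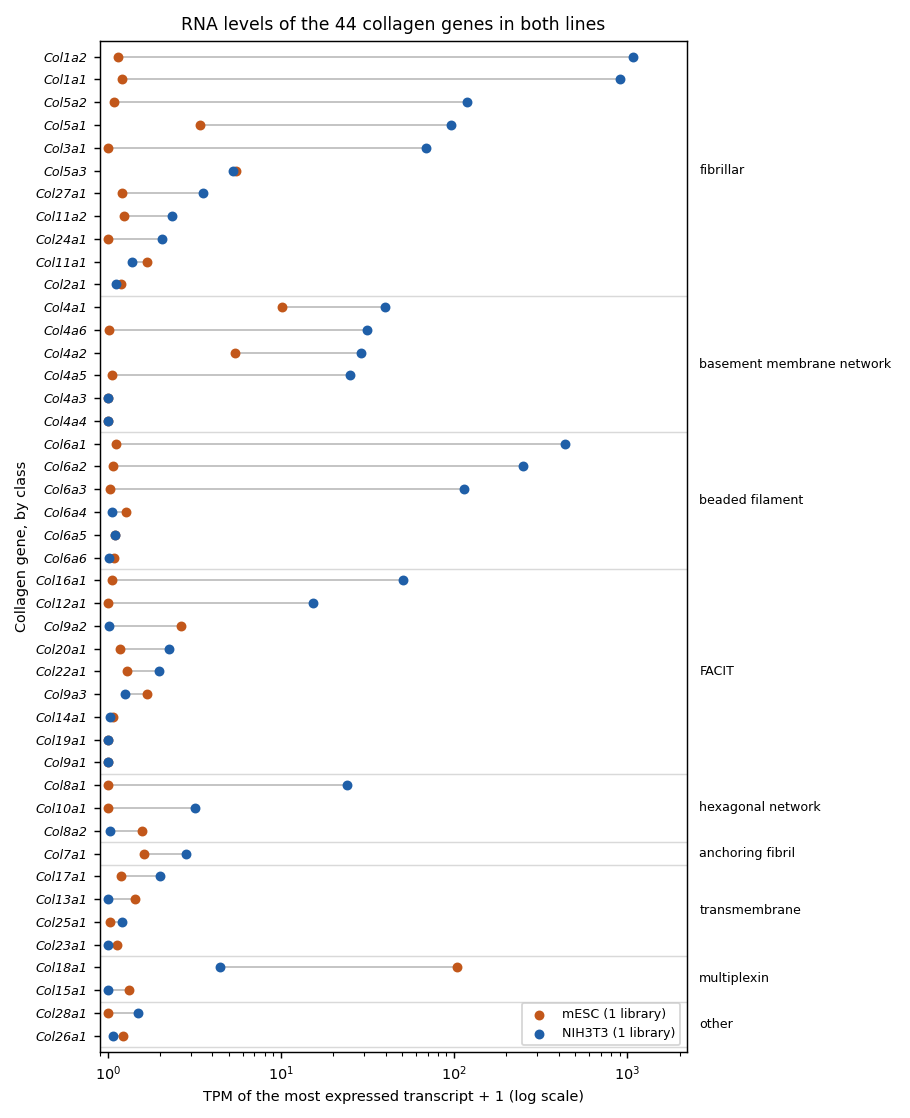
TPM plus 1 (log scale) of the most expressed transcript of each of the 44 collagen genes in the library of mESCs (orange) and of NIH3T3 cells (blue), grouped by structural class and joined by a grey line. Points that overlap lie at the same level. The blue points of 15 genes lie above a TPM of 10, and *Col18a1* is the only gene whose orange point does.

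Among the 11 fibrillar genes, 7 were higher in NIH3T3 cells and none in mESCs, and this class held 66.7% of the summed collagen TPM of NIH3T3 cells. *Col1a2* and *Col1a1*, which encode the chains of type I collagen, ranked 94th and 110th of 21817 genes in NIH3T3 cells. *Col1a1* had 30 estimated counts in mESCs and 139402 in NIH3T3 cells, a 4252-fold ratio after scaling to the library totals (2979–6303). *Col5a2* and *Col5a1* encode chains of type V collagen, which lies inside type I fibrils. *Col5a2* was at 0.0796 in mESCs and reached 118 in NIH3T3 cells. *Col5a1* was the fibrillar gene with the smallest ratio among those above a TPM of 10, with 39.3-fold more scaled counts in NIH3T3 cells (35.9–43.2). *Col3a1*, whose product forms fibrils with type I collagen in elastic tissues, had no count in mESCs and stood at 67.9 in NIH3T3 cells, at least 2906-fold higher against a floor of 3 counts in the library. *Col5a3*, the remaining chain of type V collagen, was at 4.45 in mESCs and 4.29 in NIH3T3 cells. The ratio of its scaled counts was 0.974 with an interval of 0.878–1.08, which does not reach the ratios of the other type V chains. *Col27a1* (0.205 in mESCs, 2.54 in NIH3T3 cells) and *Col24a1* (0 and 1.05) were past the 2-fold limit at low levels, and the value of *Col24a1* comes from a model of 330 bases with 2.96 of the gene's 7 counts. Of the genes for cartilage fibrils, *Col2a1* and *Col11a1* stayed below 1 in both lines, and *Col11a2* was at 0.232 in mESCs and 1.34 in NIH3T3 cells, with 7 and 295 counts and a scaled ratio of 38.6 (18.5–96.8).

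The 6 genes for collagen IV lie in 3 head-to-head pairs. In NIH3T3 cells the TPM of *Col4a1* was 1.40 times that of *Col4a2*, and the TPM of *Col4a6* 1.26 times that of *Col4a5*. Summed over all transcripts, the order of the latter pair was reversed, with 49.1 for *Col4a5* and 30.2 for *Col4a6*. The order of the former was kept, with 78.3 for *Col4a1* and 29.8 for *Col4a2*. The starts of *Col4a1* and *Col4a2*, which encode the collagen IV chains found in nearly every basement membrane, lie 21 bp apart. They stood at 9.14 and 4.39 in mESCs and at 38.9 and 27.7 in NIH3T3 cells, and the scaled counts were 4.30-fold (4.06–4.55) and 6.22-fold (5.73–6.75) higher in NIH3T3 cells. After *Col18a1*, *Col4a1* had the highest TPM of all collagen genes in mESCs. Extraembryonic endoderm also makes these chains, and its markers had the low levels in mESCs given above, whose part in these values was not tested. *Col4a5* and *Col4a6*, with starts 1309 bp apart on the X chromosome, were at 0.0581 and 0.00654 in mESCs and at 24.0 and 30.2 in NIH3T3 cells. *Col4a3* and *Col4a4*, known from the filter of the kidney and with starts 72 bp apart, were the pair with no count in either line.

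Of the 6 genes for collagen VI, only *Col6a1*, *Col6a2* and *Col6a3*, whose products make up the common form of the protein, were above a TPM of 1 in either line. *Col6a1* was at 0.111 in mESCs and 433 in NIH3T3 cells. *Col6a2*, 85.2 kb from *Col6a1* on chromosome 10 and on the same strand, was at 0.0726 and 248. *Col6a3*, on chromosome 1, was at 0.0278 and 112. All 3 had at most 10 counts in mESCs. The other chains, *Col6a4*, *Col6a5* and *Col6a6*, which lie side by side on chromosome 9, were between 0.00637 and 0.274 in both lines.

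Of the 9 FACIT genes, *Col16a1* (0.0529 in mESCs, 49.7 in NIH3T3 cells) and *Col12a1* (0 and 14.2) were higher in NIH3T3 cells, and *Col9a2* (1.64 and 0.0128) was higher in mESCs. *Col9a2* had 120 counts in mESCs and 1 in NIH3T3 cells, a ratio with an interval of 23.1 to 5222. *Col9a3*, whose product assembles with that of *Col9a2* in the collagen IX of cartilage, was at 0.672 and 0.244. Of the short-chain network collagens, *Col8a1*, known from the vessel wall, was at 0 in mESCs and 22.9 in NIH3T3 cells, and *Col10a1*, a marker of hypertrophic cartilage, at 0 and 2.16. *Col8a2* was at 0.567 and 0.0256. *Col7a1*, the collagen of anchoring fibrils in skin, was at 0.604 and 1.83. None of the 4 genes for transmembrane collagens reached a TPM of 1 in either line.

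*Col18a1* was the only collagen gene with a high level in mESCs. It encodes a collagen of basement membranes whose end piece, endostatin, inhibits vessel growth. Its level was 102 in mESCs against 3.45 in NIH3T3 cells, the latter from a model of 717 bases with 40.7 counts. The log2 difference was -4.54, and its scaled counts were 29.2-fold higher in mESCs (26.6–32.0). It ranked 883rd of all protein-coding genes in mESCs, and both genes of its class together held 80.9% of the summed collagen TPM there. That sum includes a TPM of 44.4 from a *Col18a1* model of 717 bases with 485 counts. By estimated counts, *Col18a1* held 12807 of the 17040 collagen counts in mESCs. Nearly all of its counts in mESCs, 95.0%, were assigned to 1 transcript of 5063 bases. In NIH3T3 cells the same transcript had a TPM of 1.95 and took 51.7% of 480 counts, and those of 5595 and 4791 bases took 19.9% each. *Col15a1*, the other member of the class, was at 0.310 and 0.

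For several genes the highest TPM belonged to a short or non-coding transcript model with few of the gene's counts, which touches their level. *Col6a3* was read at 112 from a retained-intron model of 646 bases with 943 counts, whereas its transcript of 9001 bases had 15964 counts and a TPM of 76.9. *Col16a1* was read at 49.7 from a model of 452 bases, whereas a model of 5138 bases had 6086 counts and a TPM of 44.98. In NIH3T3 cells *Col7a1* was read at 1.83 from a retained-intron model of 525 bases with 14.1 counts. Its transcript of 9198 bases had 260 counts and a TPM of 1.06. *Col11a2* was read there at 1.34 from a retained-intron model of 351 bases with 4.40 counts, and none of its protein-coding models passed 0.903. In mESCs *Col5a2* and *Col6a3* were read from retained-intron models with 3 and 2 counts. *Col1a1* was read from its full-length transcript, with 99.0% of its counts, while a model of 337 bases carried a TPM of 482 from 1433 counts and entered the sums over transcripts.

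Peaks were looked for over the gene body, 1 kb upstream and 5 kb downstream. At least 1 of the 7 lists had a peak at 31 of the 44 genes, or 70.5%, near the background of 63.8%, and 13 had none, among them *Col4a6*, *Col5a3* and *Col7a1*. Collagen genes are long: the median region spanned 120 kb, against 23.4 kb for all protein-coding genes, and a longer region can hold more peaks. In NIH3T3 cells, Ctr9 peaks lay at 14 of 44 genes (background 25.7%) and H3K27ac peaks at 25 (background 54.7%). In mESCs, Ctr9 peaks lay at 10 (background 44.0%) and H3K27ac peaks at 5 (background 43.0%). NELFA peaks lay at none (background 10.4%), Ser5p at 1 (background 12.8%) and Ser2p at 3 (background 6.96%). A Ctr9 peak in NIH3T3 cells and none in mESCs was found at 8 genes, or 18.2% of the collagen genes, against a background of 3.41%. These were *Col1a1*, *Col1a2*, *Col5a1*, *Col5a2*, *Col6a1*, *Col6a2*, *Col6a3* and *Col16a1*. Peaks in both lines lay at 6 genes (background 22.3%), and peaks in mESCs only at 4 (background 21.7%).

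**Figure D2:**
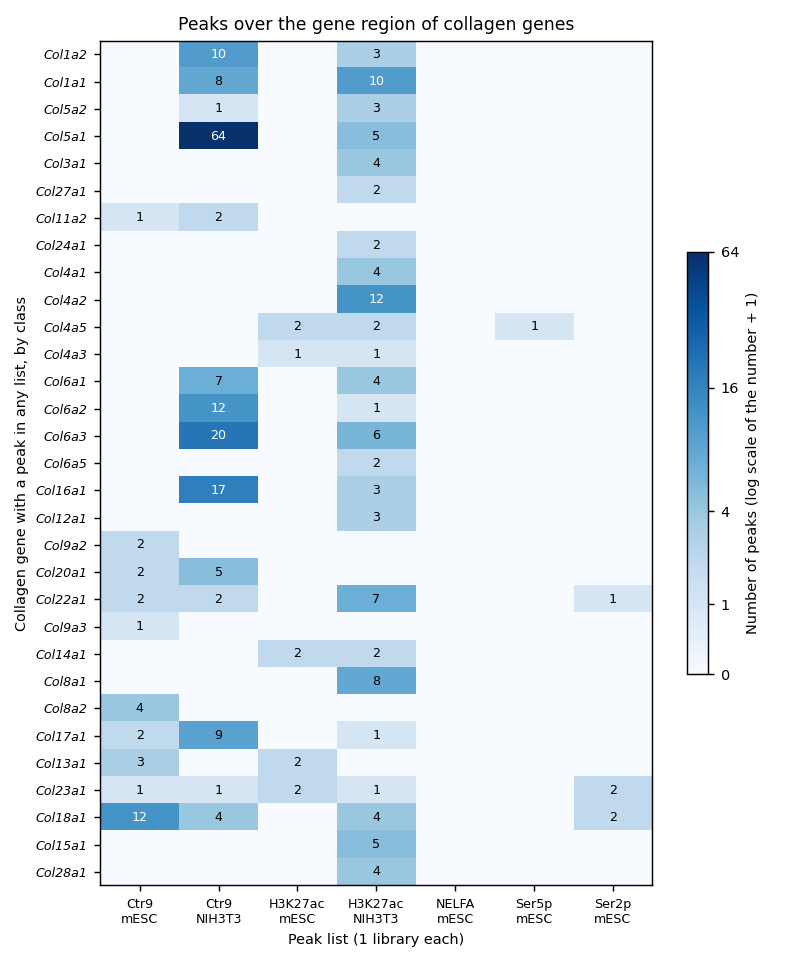
Number of peaks of each of the 7 lists (columns, 1 library each) over the region of the 31 collagen genes with a peak in any list (rows, by class), printed in each cell and shown by a blue scale (log of the number plus 1), with empty cells for 0. The Ctr9 column of NIH3T3 cells holds up to 64 peaks, at *Col5a1*, and the NELFA column is empty.

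In NIH3T3 cells the Ctr9 peaks separated the collagen genes with a TPM of at least 10 by level. Of these 15 genes, 8 had a Ctr9 peak (background 56.9% of genes at that level) and 7 had none. The 8 with a peak had a TPM between 49.7 and 1082, with a median of 183. The 7 without were between 14.2 and 67.9, with a median of 27.7, so the groups overlapped only between *Col16a1* and *Col3a1*. All 6 genes at 100 or more had a peak (background 79.8%), and 2 of 9 between 10 and 100 (background 53.3%). The 7 genes without a Ctr9 peak were *Col3a1*, *Col4a1*, *Col4a2*, *Col4a5*, *Col4a6*, *Col8a1* and *Col12a1*. They hold all 4 collagen IV genes that were transcribed above that level. Gene length moved with this split: the median region was 50.1 kb with a peak and 136 kb without. Among all protein-coding genes with a TPM of at least 10 and a region at least as long as the collagen median, 54.7% had a Ctr9 peak, and 2 of the 8 collagen genes of that length did (*Col5a1* and *Col5a2*). The part of length in the split was not tested.

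The share of the region under Ctr9 peaks varied widely. Over all 14 collagen genes with Ctr9 in NIH3T3 cells its median was 10.8%, and *Col22a1* (0.287%), *Col18a1* (1.10%) and *Col23a1* (2.34%) were among the lowest. *Col17a1* was covered over 11.6% at a TPM of 0.9996, and *Col20a1* over 10.1% at a TPM of 1.24, both above *Col6a3*. Over all 15 genes with a TPM of at least 10, those without a peak included, it was 0.215%, against 0.982% for all protein-coding genes at that level. Of these 15, 8 had a peak, and the median share of the region covered by Ctr9 peaks was 28.1% over these 8, against 5.96% over all protein-coding genes with a Ctr9 peak and a TPM of at least 10 in NIH3T3 cells. The 2 sets were not matched for level, the 8 genes having a median TPM of 183, and the part of level was not tested. *Col1a2* was covered over 80.3% of its region, 104th of 5608 genes with a Ctr9 peak, and its widest peak spanned 16270 bp. *Col1a1* was covered over 36.2%, *Col5a1* over 29.5%, *Col6a2* over 28.3% and *Col6a1* over 27.9%. Among the 8 genes, *Col16a1* followed with 14.2% under 17 peaks and *Col6a3* with 9.64% under 20 peaks. *Col5a2* was the exception, with a TPM of 118 and a single peak of 290 bp and 3.47-fold enrichment over the local background, which covered 0.215%. Its neighbour *Col3a1*, tail to tail with it at a distance of 24.6 kb, had no Ctr9 peak. Of the 12 peaks at *Col6a2*, the strongest, at 10.1-fold, lay 4022 bp past the gene's end near *Ftcd*, a gene with a TPM of 0.0143.

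**Figure D3:**
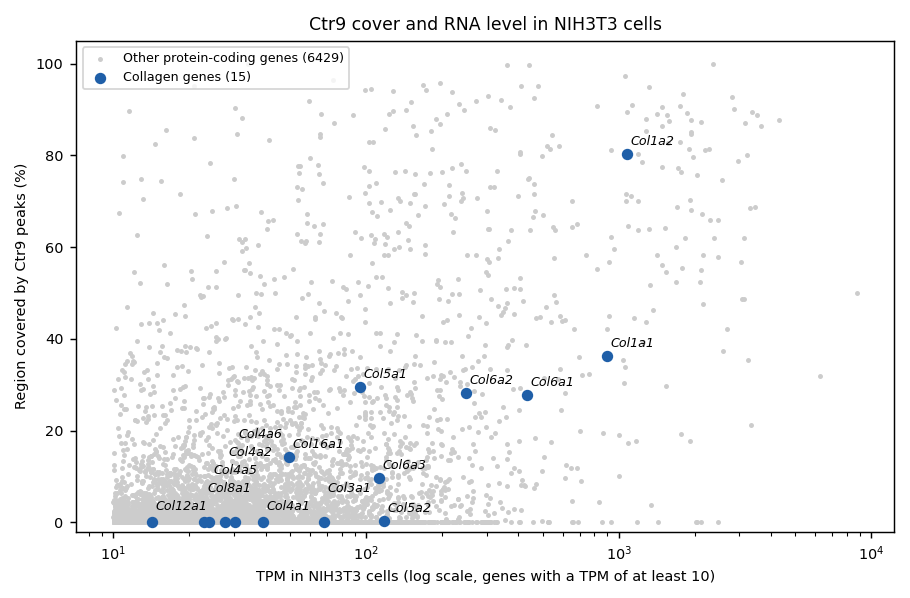
TPM in NIH3T3 cells (log scale) against the percent of the gene region covered by Ctr9 peaks, for the 15 collagen genes (blue, named) and the other 6429 protein-coding genes (grey) with a TPM of at least 10, 1 library each. *Col1a2* stands at 80.3%, and 7 collagen genes lie at 0.

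Ctr9 at collagen genes of NIH3T3 cells lay in the gene body and away from the start. Of 161 Ctr9 summits (the base of a peak with the most fragments) inside the regions, 85.7% were in the body over 1 kb from both ends, 2.48% within 1 kb of the start and 6.21% within 1 kb of the end. Over all protein-coding genes these shares were 53.9%, 11.8% and 10.8%. The shares were not matched for length. The windows at start and end were 1 kb for every gene, whereas the median region was 120 kb for collagen genes and 23.4 kb for all. A longer gene has a smaller part of its region near its ends, and the part of length in these shares was not tested. *Col5a1* alone held 64 of the peaks. Among the 15 genes with a TPM of at least 10, a Ctr9 peak reached within 1 kb of the start at 2, *Col1a1* and *Col1a2* (background 29.6%). Of the 121 body summits at these genes, 92 (76.0%) were nearer to the end than to the start, against 61.0% of 10996 summits at all genes of that level. By gene, these were 10 of 10 summits at *Col6a2*, 3 of 3 at *Col6a1*, 14 of 15 at *Col16a1*, 16 of 18 at *Col6a3*, 44 of 60 at *Col5a1* and 4 of 6 at *Col1a1*. *Col1a2* went the other way, with 1 of 8, and the single summit of *Col5a2* was also nearer to the start. At *Col16a1* the first summit lay 24332 bp and at *Col6a3* 17040 bp from the start.

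**Figure D4:**
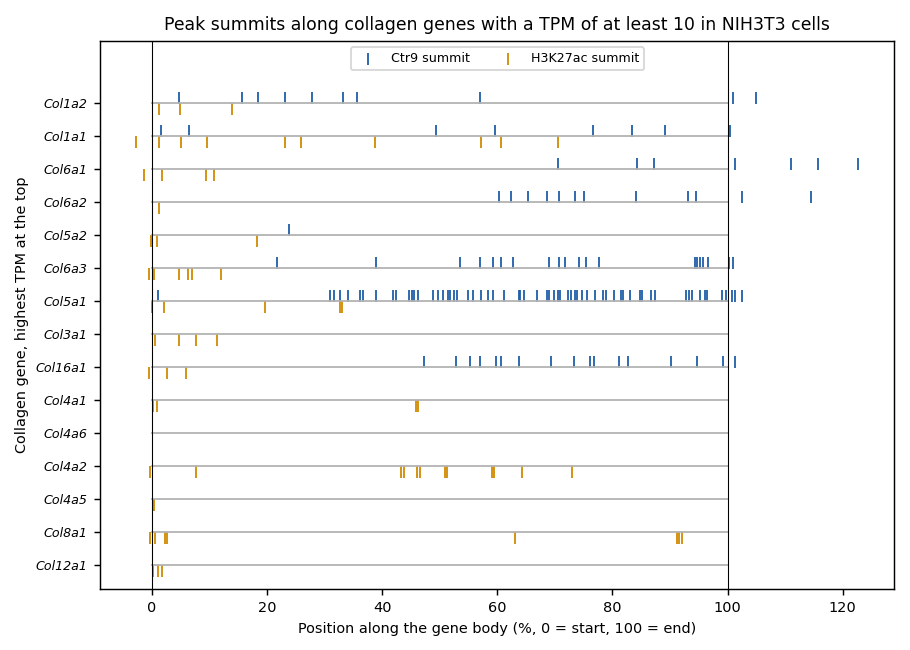
Summits of Ctr9 peaks (blue, above each line) and H3K27ac peaks (orange, below) of NIH3T3 cells along the 15 collagen genes with a TPM of at least 10, as percent of the gene body from start (0) to end (100), from 1 library each. An orange mark lies near the start of 14 genes, and blue marks lie mostly in the body. The first blue mark lies at 1.56% at *Col1a1*, 263 bp from the start, and at 1.12% at *Col5a1*, 1713 bp from the start and so over 1 kb from it.

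H3K27ac marked the start of most transcribed collagen genes and also lay along their bodies. Of 99 H3K27ac summits at collagen genes of NIH3T3 cells, 20.2% were within 1 kb of the start and 76.8% in the body, against 43.9% and 42.8% over all protein-coding genes. As for Ctr9, these shares were not matched for gene length. Of 15 genes with a TPM of at least 10 in NIH3T3 cells, 14 had an H3K27ac peak (background 97.4%), each with one within 1 kb of the start (background 91.3%), whether or not they had Ctr9. The strongest H3K27ac peak ranged from 7.41-fold to 17.9-fold at the 8 genes with Ctr9, with a median of 15.9, and from 5.0045-fold to 10.8-fold at the 6 others that had one, with a median of 8.89. The ranges overlapped. *Col1a2* had the strongest peak of the 14 genes, at 17.9-fold and 2818 bp wide, and *Col3a1* the weakest, at 5.0045-fold. *Col4a1* and *Col4a2* shared 1 peak of 1440 bp over their joint start, and *Col4a2* held 11 more along its body, between 10434 and 99539 bp from the start. The strongest H3K27ac summit lay farthest from the start at *Col8a1* (82328 bp), *Col4a1* (52612 bp), *Col4a2* (10434 bp) and *Col6a3* (5426 bp). It was also over 1 kb from the start at *Col3a1* (1802 bp), *Col1a2* (1796 bp), *Col12a1* (1250 bp) and *Col5a2* (1139 bp). *Col4a6* was the exception, with no peak of any list at a TPM of 30.2. At the neighbouring *Col4a5* the strongest H3K27ac summit lay 445 bp inside that gene and so beyond the 1 kb upstream limit of *Col4a6*. Of the 162 Ctr9 peaks at collagen genes, 9 overlapped an H3K27ac peak, or 5.56% (2.57–10.3), 4 of them at *Col1a1*. Over all protein-coding genes 22.0% of 19987 Ctr9 peaks did. The interval treats the 162 peaks as independent, although many share a gene, 64 of them at *Col5a1*. Below a TPM of 1 in NIH3T3 cells, 8 of 21 genes had H3K27ac peaks (background 17.3% of genes below 1), none within 1 kb of the start (background 5.76%). *Col15a1*, without a count, had 5 of them between 76916 and 102436 bp into the gene, and *Col22a1* had 7. Among the 8 genes, the peak summits of *Col23a1* and *Col4a3* lay past the gene's end, near *Phykpl* and *Mff*. So did 1 of the 2 summits of *Col14a1*, 4287 bp past its end. The background of genes below 1 was not matched for length.

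The sequence just before the start is shown for the collagen genes with a TPM of at least 10 in NIH3T3 cells whose RefSeq promoter window begins at the annotated start of the gene and whose last 150 bases before it hold no annotated exon. RefSeq windows (GRCm38.p6, 250 bases before and 50 after a start) matched 35 of the 44 genes, with 38 windows. *Col1a1*, *Col2a1*, *Col4a3*, *Col5a2*, *Col9a3*, *Col12a1*, *Col14a1*, *Col22a1* and *Col26a1* were not among them. Capitals mark matches to TATAAA, known as the TATA box, to GGGCGG, known as the GC box, or to CCAAT, the motif of the factor NF-Y. All were sought on both strands and counted also where motifs overlap.
Col3a1 (chr1:45311388-45311537, plus strand): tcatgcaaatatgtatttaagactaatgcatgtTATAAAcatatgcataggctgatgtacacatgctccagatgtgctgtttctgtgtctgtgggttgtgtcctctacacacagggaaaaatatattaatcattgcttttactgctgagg
Col6a3 (chr1:90843972-90844121, minus strand): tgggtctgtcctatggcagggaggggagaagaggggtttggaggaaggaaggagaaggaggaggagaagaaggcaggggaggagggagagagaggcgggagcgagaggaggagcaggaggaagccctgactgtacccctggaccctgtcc
Col5a1 (chr2:27886275-27886424, plus strand): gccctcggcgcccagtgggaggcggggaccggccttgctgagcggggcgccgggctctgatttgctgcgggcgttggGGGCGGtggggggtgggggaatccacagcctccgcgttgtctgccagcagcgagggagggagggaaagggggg
Col6a2 (chr10:76623631-76623780, minus strand): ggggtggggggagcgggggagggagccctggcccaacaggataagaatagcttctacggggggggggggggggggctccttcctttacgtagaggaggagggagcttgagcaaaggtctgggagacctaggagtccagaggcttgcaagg
Col8a1 (chr16:57754738-57754887, minus strand): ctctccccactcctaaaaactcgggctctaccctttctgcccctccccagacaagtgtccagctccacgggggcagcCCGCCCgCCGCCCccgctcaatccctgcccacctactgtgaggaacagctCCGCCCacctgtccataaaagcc
Col4a6 (chrX:141474077-141474226, minus strand): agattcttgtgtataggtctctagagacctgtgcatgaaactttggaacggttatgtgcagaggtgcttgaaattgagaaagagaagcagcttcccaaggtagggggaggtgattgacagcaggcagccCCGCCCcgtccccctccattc
The promoters differ in make-up. That of *Col3a1* is 37.3% G and C and holds a match to TATAAA 117 to 112 bases before the start. That of *Col5a1* is 74.7% G and C and holds a match to GGGCGG 73 to 68 bases before it. Whether any match acts in transcription was not tested. Those of *Col6a3* and *Col6a2* hold none of the 3 motifs in these bases, that of *Col8a1* holds 3 GC boxes and that of *Col4a6* 1. An H3K27ac peak of NIH3T3 cells met the RefSeq windows of *Col3a1*, *Col6a3* and *Col5a1*, and none reached those of *Col6a2*, *Col8a1* and *Col4a6* shown here. At *Col5a1* the peak spanned all the bases shown. At *Col6a3* and *Col3a1* it reached only those next to the start, and at *Col3a1* only the last base. *Col6a2* has a second RefSeq window, not shown, whose start lies 226 bp downstream of the annotated one. That window held 3 GC boxes in its 250 bases and met an H3K27ac peak of NIH3T3 cells. Over the whole 250 bases, a GC box was in 22 of 38 collagen windows (57.9%), against 32.7% of all 32851 windows. The motif of NF-Y was in 34.2% against 33.8%, and a TATA box in 13.2% against 12.4%.

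In mESCs many Ctr9 peaks at collagen genes lay close to another gene. Of the 30 Ctr9 peaks, 19 were within 1 kb of another protein-coding gene, or 63.3%, against 30.3% over all protein-coding genes, and 9 of 18 were when *Col18a1* is left out. For H3K27ac in mESCs 3 of 9 peaks were, against 32.5%. Without those 19, 6 of the 10 genes still had a peak. *Col18a1* held 12 of the 30. The strongest, 8.33-fold and 3201 bp wide, lay 1283 bp past its end. Of the 12, 10 lay within 1 kb of *Slc19a1*, a folate transporter gene with a TPM of 3.43 in mESCs, and the other 2, 3.08-fold and 2.43-fold, lay 35967 and 32709 bp into the gene. Of all genes with a TPM of at least 10 in mESCs, 87.4% had a Ctr9 peak and 27.5% had one within 1 kb of the start, and *Col18a1* had none there. H3K27ac was absent from the whole region of *Col18a1* in mESCs, whereas 86.2% of genes at that level had a peak and 76.1% had one within 1 kb of the start. Both Ser2p peaks of *Col18a1* lay past its end, near *Slc19a1*. The 4 Ctr9 peaks of *Col18a1* in NIH3T3 cells, where *Slc19a1* had a TPM of 16.7, also all lay within 1 kb of that gene.

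The other 9 genes with Ctr9 in mESCs had a TPM of at most 1.64 there. *Col11a2* had the strongest peak, 15.3-fold at 776 bp before its start, next to the retinoid receptor gene *Rxrb* (TPM 7.65). The peak of *Col9a3* lay 898 bp before its start next to *Ogfr* (18.0), and the 4 peaks of *Col8a2* lay at and past its end next to *Adprhl2* (14.2). The peak of *Col23a1* lay 1065 bp past its end next to *Phykpl* (0.983), and 1 peak each of *Col20a1* and *Col9a2* lay next to *Arfgap1* (7.64) and *Zmpste24* (19.2). *Col13a1*, *Col17a1* and *Col22a1* had peaks away from other coding genes, between 2.53-fold and 7.08-fold. The peaks of *Col22a1* at its end, 330 bp past it in mESCs and 188 bp past it in NIH3T3 cells, recurred in both lines at 7.08-fold and 4.90-fold, with a Ser2p peak in mESCs 181 bp past the end, at a TPM of 0.282 and 0.963. In NIH3T3 cells the region of *Col23a1* met a Ctr9 peak of 25009 bp whose summit lay 13791 bp past the gene's end, near *Phykpl* and *Hnrnpab* (479).

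H3K27ac in mESCs gave 9 peaks at collagen genes, none within 1 kb of a start. *Col4a3* had 1, of 11.2-fold, 2972 bp past its end near *Mff* (TPM 23.2), and the same place carried a peak of 26.2-fold in NIH3T3 cells. *Col23a1* had 2, also at its end. *Col4a5*, *Col13a1* and *Col14a1* had 2 each inside the gene, between 3.37-fold and 3.95-fold. Those of *Col4a5*, 91888 and 92979 bp into the gene, stood on either side of the single Ser5p summit found at a collagen gene, at 92686 bp.

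The 55 genes for making, exporting, crosslinking, binding and breaking down collagen followed the collagen genes in part. Of these, 26 were at least 2-fold higher in NIH3T3 cells (47.3%, against the background of 11.3% above), 3 were higher in mESCs (5.45%, background 13.5%) and 26 were between, with a median log2 difference of 0.97. *Lox*, which crosslinks collagen and elastin, was at 0.0299 in mESCs and 716 in NIH3T3 cells. *Loxl1* (0.106 and 103), *Loxl3* (0.0581 and 27.7) and *Loxl4* (0.264 and 5.95) were also higher in NIH3T3 cells, whereas *Loxl2*, of the same family, was at 25.6 in mESCs and 0.0318 in NIH3T3 cells. The paralogs that raise the cleavage of the procollagen end piece differed in the same manner: *Pcolce* was at 65.9 and 198, and *Pcolce2* at 29.3 and 0.0458. *Tmem39a*, which acts in procollagen export, was the third gene higher in mESCs, at 99.5 and 11.2.

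The steps differed among themselves. *Serpinh1*, a chaperone that binds only collagen, was at 9.88 in mESCs and 504 in NIH3T3 cells, and *Fkbp10*, another collagen chaperone, at 7.34 and 61.3. Of the 4 prolyl 4-hydroxylase genes, *P4ha1* (10.8 and 44.2), *P4ha2* (3.67 and 21.3) and *P4ha3* (0 and 18.8) were higher in NIH3T3 cells, and *P4hb*, which serves other proteins too, was at 161 and 322. Prolyl 3-hydroxylation held *Crtap* (67.3 and 61.6) and *Ppib* (192 and 225) at like levels in both lines. Of the same step, *P3h3* (0.653 and 33.8) and *P3h4* (6.69 and 44.0) were higher in NIH3T3 cells. Of 5 genes for lysyl hydroxylation and glycosylation, only *Plod3* (15.0 and 61.5) was past the limit. The procollagen proteases *Bmp1* (1.44 and 19.5) and *Adamts2* (0.165 and 20.9), the collagen receptor *Ddr2* (0.473 and 43.2) and the breakdown genes *Mmp2* (7.44 and 161), *Mmp14* (18.6 and 85.1) and *Mrc2* (0.558 and 18.955) were higher in NIH3T3 cells. The fibril-binding proteoglycans *Bgn* (0.250 and 1167) and *Dcn* (0 and 62.7) were also higher there, as was the collagen-binding integrin gene *Itga11* (0 and 4.76), whereas *Itga1*, *Itga2* and *Itga10* were below 1 in both lines.

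**Figure D5:**
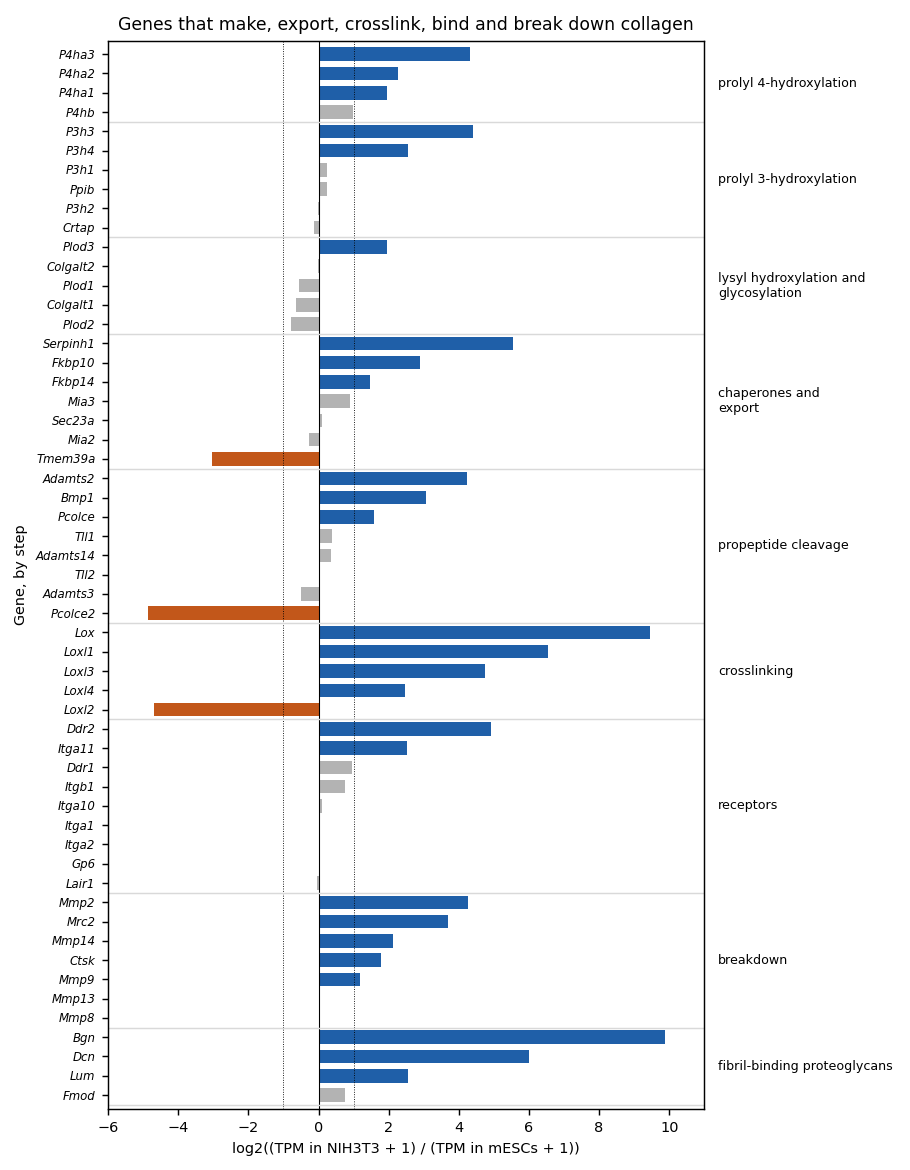
Log2 of the ratio of TPM plus 1, NIH3T3 cells over mESCs, for 55 genes that act on collagen, grouped by step, from 1 library per line. Blue bars are at least 2-fold higher in NIH3T3 cells (26 genes), orange bars at least 2-fold higher in mESCs (*Tmem39a*, *Pcolce2* and *Loxl2*), grey bars lie between the dotted lines of 2-fold, and genes without a bar have a ratio at or near 0.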

How the data were processed

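For ChIP-seq, the authors used Bowtie2 2.3.5.1 for alignment to mm10 and MACS2 2.2.6 for peak calling. They deposited, per library, peak positions, summits, fold enrichment (a ratio to the local background), −log10 p and −log10 q values, and a score made from q that was not used. The submitters' processing notes name kallisto 0.46.1 for RNA-seq, and the authors deposited estimated counts and TPM per transcript of GENCODE M19. The 3 input libraries of the 12 samples were not used here. Kallisto splits reads between transcripts, so short models can take a high TPM from few counts.

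The level of a gene was its highest transcript TPM. Differences were log2 ratios with a pseudocount of 1 and a limit of 2-fold. Gene positions came from GENCODE M21 (GRCm38, the same assembly as mm10). Peaks overlapped the body, 1 kb upstream or 5 kb downstream by at least 1 base. Ratios of estimated counts, rounded to whole numbers, carry exact conditional binomial intervals. Genes were named in full when they had one of the 12 highest TPMs in either line, were higher in mESCs, had a TPM of at least 10 and no Ctr9 peak, or had Ctr9 in mESCs. Of the pathway list, those with a 4-fold difference and a TPM of at least 10 qualified; others named were chosen after their values were seen. The members, classes and lists were chosen with earlier results of these data known. Code was tested on simulated data (7 of 7 checks passed). Python 3.11.15, pandas 2.3.3, NumPy 2.4.6, SciPy 1.17.1 and Matplotlib 3.10.9 were used.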

Additional observations from a re-analysis of the deposited data

How the results depend on the processing

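The 25 counts and shares were recomputed under 31 alternatives and 6 more chosen after seeing the data, which gave 99 values. Of these, 86 stayed within 1.5 times the count, or within the counting interval of the share, and 13 did not. The number of collagen genes higher in mESCs was 8 with a pseudocount of 0.1, 1 with a 4-fold limit and 5 from estimated counts scaled to the library totals, in place of 2. The summed collagen share of TPM was 0.0130% in mESCs and 0.328% in NIH3T3 cells from the most expressed transcripts only, and 0.0200% and 0.483% without mitochondrially encoded transcripts. Leaving out peaks within 1 kb of another protein-coding gene left Ctr9 at 6 genes in mESCs and at 3 in both lines, H3K27ac at 3 in mESCs and Ser2p at 1. With a −log10 q of at least 5, Ser2p peaks lay at 1 gene, and 20.0% of the Ctr9 summits in mESCs lay in the body, in place of 37.9%. The cause of each move was not tested beyond what the alternative itself removes. The 18 genes higher in NIH3T3 cells and the 8 genes with Ctr9 in NIH3T3 cells only kept their counts within 1.5 times under every alternative run for them. No paired analysis was possible because each group holds 1 library. The lists hold no read counts, so a gene without a peak may lie under the depth of its library.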
